A study of Nothobranchius furzeri with 12 samples.

Results

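The proteasome genes of the turquoise killifish (Nothobranchius furzeri) were followed in retina across 4 ages. Members were the entries of the deposited count table whose name starts with psm, a letter from a to g and a digit, together with adrm1, with at least 120 counts summed over the 12 libraries. This gave 43 of 25122 genes, and no matching name fell under the minimum. They comprised 14 core genes (7 psma, 7 psmb) and 19 cap genes (6 psmc, 12 psmd and adrm1). Counted among the cap genes were psmd5, psmd9 and psmd10, which encode chaperones of cap assembly. The others were 4 activators (psme1 to psme4), the inhibitor psmf1, 4 chaperones of core assembly (psmg1 to psmg4) and psmc3ip. The last encodes no proteasome subunit but a partner protein in meiotic recombination, and it entered through its name alone.

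Each library came from 1 untreated male, and 3 fish were sampled at each age, the youngest at 1.5 months and the others at 3.0 months, 4.5 months and 6.0 months. Per the labels the fish belonged to a mutant line crossed back to the short-lived GRZ strain, so all 4 groups share that background. The mutated gene and the genotype of each fish were not named in the labels. The tissue was, per the labels, retina with its attached retinal pigment epithelium (RPE), taken free of cornea, lens, iris, sclera and choroid. Markers of lens and of surface epithelium were nonetheless high in some libraries, as given below. The libraries were made with Nextera XT and read on a NovaSeq S4 lane.

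The proteasome is the chamber in which cells degrade proteins tagged with ubiquitin. Its core is a barrel of alpha and beta rings with the proteolytic sites on certain beta subunits, and its cap binds the ubiquitin chain, removes it, and unfolds the protein with a ring of ATPases. Immune signals replace the catalytic beta subunits by inducible ones and add the psme1 and psme2 activator, which shifts the peptides made for antigen presentation. Photoreceptors rebuild their outer segments throughout life and so make protein at a high rate.

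Libraries held 34437141 to 50268318 counts in total. Rod markers summed to between 3051 and 9645 CPM (counts per 1000000, on library sizes scaled by edgeR's TMM factors), cone markers to between 7615 and 15650, and RPE markers (5 of 9 names tested) to between 3516 and 11700, so markers of retina and of RPE were present in every library. Lens markers reached 6414 CPM in 6.0 months replicate 1, 1324 in 4.5 months replicate 1 and 441.5 in 1.5 months replicate 2, against 6.377 to 43.73 elsewhere. Cornea and surface epithelium markers (7 of 10 names tested) summed to 5084 CPM in 1.5 months replicate 1 and to between 38.27 and 722.7 elsewhere. The 70 ribosomal protein genes summed to between 16676 and 22889 CPM in 4 libraries (replicate 2 at 3.0 months, replicates 2 and 3 at 4.5 months, replicate 2 at 6.0 months) and to between 35883 and 53133 in the other 8. The 2 libraries of this kind at 4.5 months carry the word "Resub" in their names, which the labels do not explain.

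None of the 43 proteasome members passed the main test, by edgeR, at any comparison of ages. All 43 were among the 20717 genes tested, and edgeR's quasi-likelihood test at an adjusted p under 0.05 called 0 of 43 in each of 6 pairs of ages, in an omnibus test over the ages and in the slope per month. The shares of all genes called were 2.78% for 6.0 against 1.5 months, 3.03% for 4.5 against 1.5 months, 0.0193% for 3.0 against 1.5 months, 0.319% for 4.5 against 3.0 months, 0.599% for 6.0 against 4.5 months and 0% for 6.0 against 3.0 months. They were 2.21% for any difference and 1.17% for the slope. With shares this low, 0 of 43 is near what the background holds.

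At an unadjusted p under 0.05, 5 of 43 members were reached for 6.0 against 1.5 months (20.4% of all genes), 4 for 4.5 against 1.5 months (22.2%), 1 for 3.0 against 1.5 months (12.6%), 0 for 4.5 against 3.0 months (14.7%), 2 for 6.0 against 4.5 months (16.6%) and 2 for 6.0 against 3.0 months (8.35%). The test of any difference gave 2 (22.9%) and the slope 5 (17.2%). In none of the 8 tests was the share of proteasome genes above that of all genes. DESeq2, run on the same counts, called 2 of 43 for 6.0 against 1.5 months (psme1 and psmc3ip; 8.93% of all genes), 1 for 6.0 against 3.0 months (psme1; 0.988%), 1 for any difference (psme1; 15.6%) and 2 for the slope (psme1 and psmc3ip; 5.47%). It called 0 of 43 for 3.0 against 1.5 months (2.36% of all genes), 4.5 against 3.0 months (4.78%), 6.0 against 4.5 months (6.27%) and 4.5 against 1.5 months (10.8%).

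The estimated differences were small for most members. Between 1.5 and 6.0 months the 95% interval of the log2 change lay within 1 of 0 for 39 of 43 members. It lay within 0.5 for 21. Among all 20717 tested genes these counts were 13266 and 5167. The median SE was 0.16 over the members and 0.21 over all tested genes. The 2 sets were not matched for counts, on which the width of an interval depends. A p that misses the threshold does not show equal levels, and these intervals give the changes that 3 fish an age leave possible. The estimate lay below 0 for 34 of 43 members (50.6% of all genes), with a median log2 change of -0.12 against -0.01 over all genes. Without 6.0 months replicate 2 the median was -0.05 and 28 estimates lay below 0, and without 1.5 months replicate 3 these were -0.05 and 28 as well. Levels at the 2 ages did not overlap for 11 members that were lower at 6.0 months (psma1, psma6, psmb2, psmb5, psmc1, psmc2, psmc4, psmc6, psmd8, psmd13 and adrm1; 14.7% of all genes) and for 2 that were higher (psme2 and psmc3ip; 15.9%). In bulk tissue, fewer cells of a type and less RNA per cell cannot be told apart.

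**Figure D1:**
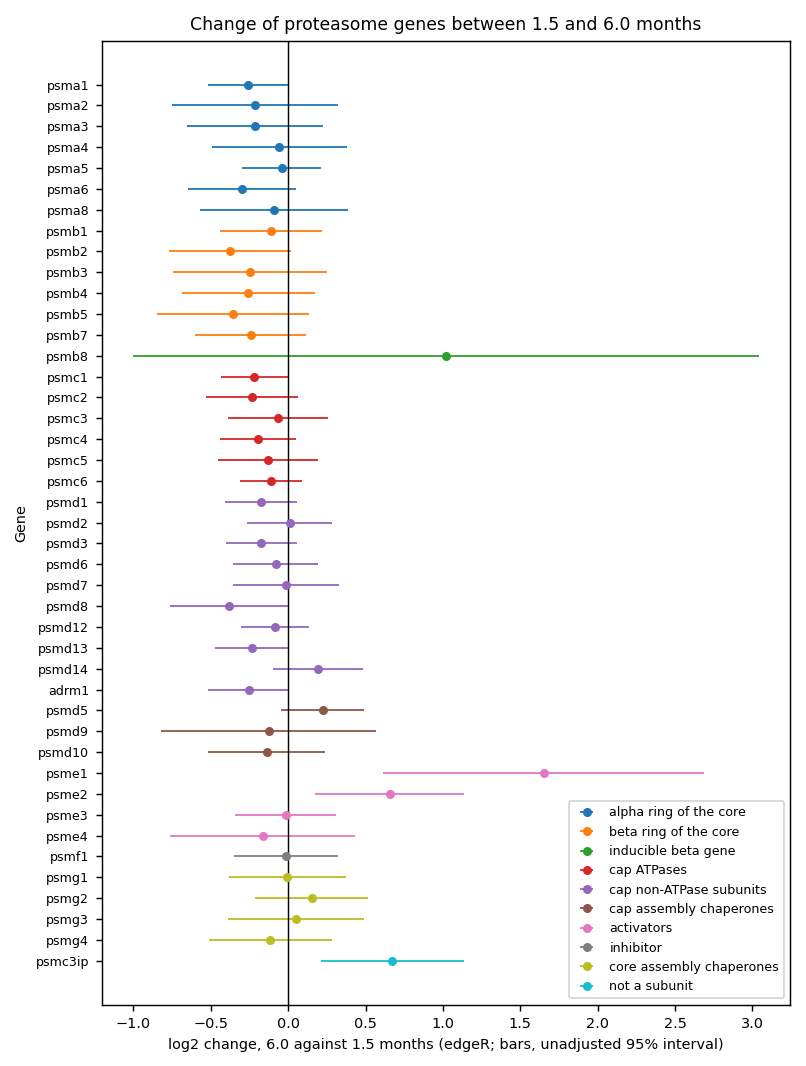
Log2 change from 1.5 to 6.0 months (x axis) for each of the 43 members (y axis), coloured by role; points are edgeR estimates and bars unadjusted 95% intervals. Most core and cap genes sit slightly below 0, whereas psme1 (1.65), psmb8 (1.02), psmc3ip (0.67) and psme2 (0.66) sit to the right; none passed at an adjusted p under 0.05.

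In the constitutive core the estimates for old fish lay on the lower side without passing. All 7 alpha ring genes and all 6 constitutive beta ring genes had estimates below 0 for 6.0 against 1.5 months (50.6% of all genes). Their median log2 changes were -0.22 and -0.25. Levels did not overlap for 4 of the 13, psma1, psma6, psmb2 and psmb5, each lower at 6.0 months (14.7% of all genes). They overlapped for the other 9. All 70 ribosomal protein genes also had estimates below 0 at this comparison (median -0.36), and none passed with edgeR. Lower estimates were thus not particular to the core. Most photoreceptor markers were lower at 6.0 months too. The rod sums (7 entries tested) were 3593, 3051 and 4987 CPM against 8372, 6023 and 6780 at 1.5 months. Estimates lay below 0 for 5 of the 7 rod entries (median log2 change -0.88), of which rom1a fell (edgeR). The others, nrl and a second pde6b entry, went up: nrl read 63.7, 57.8 and 58.3 CPM at 1.5 months and 74.5, 65.5 and 70.1 at 6.0 months. All 5 cone markers had estimates below 0 (median -0.63), of which opn1sw2 fell (edgeR). The 5 Mueller glia markers all had estimates below 0 as well (median -0.43), and none passed with edgeR. Rod sums were highest in 4.5 months replicates 2 and 3 (9645 and 9170 CPM). The core medians there, centred on each gene's mean, were -0.07 and -0.25 (log2). Cone sums there were 15650 and 14330 CPM. In 6.0 months replicate 2 the rod sum was lowest (3051 CPM) and the core median was -0.33. The part of photoreceptor or glial RNA in the core estimates was not tested.

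psmb5, which carries the chymotrypsin-like site, read 26.1, 29.6 and 29.1 CPM at 1.5 months, 34.5, 16.6 and 25.3 at 3.0 months, 28.2, 25.5 and 18.8 at 4.5 months and 24.5, 20.3 and 21.3 at 6.0 months. Its 3 oldest fish lay below all 3 youngest, but the fish at 3.0 months spanned both. The log2 change was -0.36 ± 0.23 (SE derived from the joint fit, n = 3 and 3, edgeR adjusted p = 0.399).

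psmb7, which carries the trypsin-like site, read 104.0, 103.7 and 117.3 CPM at 1.5 months and 103.8, 78.0 and 93.2 at 6.0 months. The highest old fish fell within the range of the young ones, and the log2 change was -0.24 ± 0.16 (edgeR adjusted p = 0.434). psmb2, a beta subunit without a proteolytic site, had the largest negative core estimate: 66.0, 66.2 and 77.0 CPM at 1.5 months, 73.3, 47.9 and 63.7 at 3.0 months, 64.7, 47.7 and 46.7 at 4.5 months and 58.0, 44.6 and 58.6 at 6.0 months. All 3 old fish lay below all 3 young ones, with a log2 change of -0.38 ± 0.18 (edgeR adjusted p = 0.268) and a slope of -0.09 ± 0.04 per month (edgeR adjusted p = 0.233). Without 6.0 months replicate 2, the lowest library for this gene, the change of psmb2 was -0.26.

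Among the alpha genes, which form the gate of the barrel, psma3 read 49.3, 54.0 and 66.8 CPM at 1.5 months and 56.5, 39.7 and 50.3 at 6.0 months, with overlap (log2 change -0.22 ± 0.20, edgeR adjusted p = 0.579). psma1 and psma6 did not overlap, at -0.26 ± 0.12 (edgeR adjusted p = 0.247) and -0.30 ± 0.16 (edgeR adjusted p = 0.318). psma8 is known in mammals as a testis form of an alpha subunit. No psma7 was among the 7 alpha ring members here, and whether psma8 names that testis form in killifish was not tested. In these retinas it stood at 100.1 ± 11.2 CPM at 1.5 months (SD, n = 3), and its log2 change to 6.0 months was -0.09 ± 0.22 (edgeR adjusted p = 0.849).

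The third catalytic beta gene, psmb6, was found only by looking up locus numbers in a reference annotation that may differ from the authors', so it is not a member. It read 109.1, 98.5 and 119.0 CPM at 1.5 months, 111.4, 64.0 and 106.4 at 3.0 months, 99.7, 89.8 and 79.0 at 4.5 months and 100.2, 70.03 and 94.5 at 6.0 months. Its youngest and oldest fish overlapped (log2 change -0.30 ± 0.20, edgeR adjusted p = 0.426). It was lowest in 3.0 months replicate 2 and next lowest in 6.0 months replicate 2.

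In the cap the estimates lay below 0 for 16 of 19 genes, counting the assembly chaperones psmd5, psmd9 and psmd10. The median was -0.13, and none passed with edgeR. The 6 ATPases of the cap, the motor that threads proteins into the core, all had estimates below 0. These ran from -0.07 for psmc3 to -0.23 for psmc2 (edgeR adjusted p = 0.833 and 0.355). psmc1 read 85.0, 82.4 and 88.8 CPM at 1.5 months, 82.1, 71.1 and 83.0 at 3.0 months, 89.4, 84.8 and 83.9 at 4.5 months and 76.4, 67.8 and 75.9 at 6.0 months. The 3 oldest fish lay below all fish of 1.5 and of 4.5 months, and replicates of this gene were close together. Its log2 change was -0.22 ± 0.10 against 1.5 months (edgeR adjusted p = 0.241) and -0.23 against 4.5 months (edgeR adjusted p = 0.273). The estimates of psmc4, psmc5 and psmc6 were -0.20, -0.13 and -0.11 (edgeR adjusted p = 0.349, 0.662 and 0.527). psmc6 varied least of all members, with a highest library only 1.20 times the lowest.

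Of the 10 non-ATPase cap genes, 8 had estimates below 0. psmd8, a lid subunit, had the largest negative estimate of the set at this comparison: 74.3, 76.6 and 85.4 CPM at 1.5 months, 80.6, 56.0 and 77.7 at 3.0 months, 90.5, 70.7 and 65.5 at 4.5 months and 65.8, 49.2 and 66.3 at 6.0 months. The oldest fish lay below the youngest without overlap, and the log2 change was -0.38 ± 0.17 (edgeR adjusted p = 0.24); without 6.0 months replicate 2 it was -0.26. The large base scaffold psmd2 read 174.1, 130.4 and 151.4 CPM at 1.5 months and 153.7, 160.4 and 145.0 at 6.0 months, a log2 change of 0.01 ± 0.13 (edgeR adjusted p = 0.975). Its partner scaffold psmd1 stood at -0.17 ± 0.11 (edgeR adjusted p = 0.386).

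The genes that handle the ubiquitin chain went different ways in their estimates. adrm1, a ubiquitin receptor, read 33.4, 36.5 and 39.3 CPM at 1.5 months, 28.7, 27.5 and 30.8 at 3.0 months, 33.7, 28.2 and 25.2 at 4.5 months and 29.8, 30.6 and 31.1 at 6.0 months. Fish of 3.0 and of 6.0 months all lay below the youngest, while 1 fish of 4.5 months reached their range. The log2 change of adrm1 was -0.33 at 3.0 months (edgeR adjusted p = 0.307), -0.33 at 4.5 months (adjusted p = 0.14) and -0.25 ± 0.12 at 6.0 months (adjusted p = 0.259), each against 1.5 months. Without 4.5 months replicate 1 the difference at 4.5 months was -0.45 and passed (edgeR adjusted p = 0.0266); without the 2 Resub libraries it was -0.12 (edgeR adjusted p = 0.813).

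psmd14, the enzyme that cuts off the ubiquitin chain, read 31.5, 29.3 and 33.8 CPM at 1.5 months, 37.9, 33.8 and 37.4 at 3.0 months, 43.3, 37.2 and 33.7 at 4.5 months and 38.8, 30.1 and 39.3 at 6.0 months. The youngest fish were at the low end, with overlap at 6.0 months (log2 change 0.19 ± 0.13, edgeR adjusted p = 0.441). psmd11b, a lid gene known here only through its locus number and so no member, passed with edgeR at 1 comparison. It read 44.5, 44.3 and 48.7 CPM at 1.5 months, 51.6, 51.7 and 48.2 at 3.0 months, 57.6, 63.1 and 62.5 at 4.5 months and 54.0, 48.2 and 52.1 at 6.0 months, so the fish of 4.5 months lay above all others. It rose by 0.41 ± 0.09 on the log2 scale from 1.5 to 4.5 months (edgeR adjusted p = 0.0418; DESeq2 adjusted p = 0.00111). With each library left out in turn it no longer passed in 9 of 12 cases (edgeR adjusted p from 0.015 to 0.184), and without the 2 Resub libraries the difference was 0.32 (edgeR adjusted p = 0.451). It was chosen for description after its value was seen.

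Chaperones that build the particle and the inhibitor gave no passing difference. Of the cap chaperones, psmd5 read 17.6, 20.1 and 17.8 CPM at 1.5 months and 24.1, 19.4 and 21.5 at 6.0 months (log2 change 0.22 ± 0.12, edgeR adjusted p = 0.327). psmd9 ranged 2.20-fold between its lowest and highest library, and psmd10 stood at -0.14 ± 0.17 (edgeR adjusted p = 0.69). The 4 psmg genes, whose products assemble the alpha ring, had estimates of -0.01 (psmg1), 0.15 (psmg2), 0.05 (psmg3) and -0.12 (psmg4), with edgeR adjusted p from 0.647 to 0.989. psmf1, an inhibitor of the core in mammals, read 60.3, 66.7 and 66.6 CPM at 1.5 months and 67.7, 62.1 and 61.9 at 6.0 months (log2 change -0.01 ± 0.15, edgeR adjusted p = 0.97).

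Among the genes that serve antigen presentation, psme1 and psmb8 had the largest estimates and the widest ranges of the set. psme1, a subunit of the interferon-inducible activator, read 2.95, 0.83 and 1.21 CPM at 1.5 months, 1.80, 1.51 and 1.59 at 3.0 months, 2.41, 2.25 and 1.49 at 4.5 months and 4.43, 8.26 and 2.93 at 6.0 months. All old fish lay above those of 3.0 and 4.5 months, but 1 of 3 young fish was just above the lowest old fish. The log2 change of psme1 from 1.5 to 6.0 months was 1.65 ± 0.47 (95% interval 0.61 to 2.68; edgeR adjusted p = 0.0836), the smallest adjusted p of the set there, and DESeq2 gave 1.64 (adjusted p = 0.0122). The estimate was 1.14 without 6.0 months replicate 2 (edgeR adjusted p = 0.257) and 2.35 without 1.5 months replicate 1. Its slope was 0.36 ± 0.10 per month (edgeR adjusted p = 0.0948), and without 1.5 months replicate 1 it was 0.51 and passed (edgeR adjusted p = 0.0412).

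psme2, the partner subunit, read 10.5, 9.21 and 12.1 CPM at 1.5 months, 14.4, 9.41 and 13.0 at 3.0 months, 11.3, 15.6 and 9.90 at 4.5 months and 15.6, 20.7 and 13.8 at 6.0 months. All 3 old fish lay above all 3 young ones, with a log2 change of 0.66 ± 0.22 (edgeR adjusted p = 0.126). psmb8, the inducible counterpart of psmb5, had few counts, with 69, 6 and 8 counts at 1.5 months, 12, 4 and 14 at 3.0 months, 22, 6 and 18 at 4.5 months and 32, 132 and 36 at 6.0 months. The highest libraries were 6.0 months replicate 2 at 2.51 CPM and 1.5 months replicate 1 at 1.68 CPM, a 26.9-fold spread from the lowest library to the highest.

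The young and old fish overlapped for psmb8, and its log2 change was 1.02 ± 0.93 (edgeR adjusted p = 0.567). The change of psmb8 depended on a single fish at either age: it was 0.18 without 6.0 months replicate 2 and 3.12 without 1.5 months replicate 1 (edgeR adjusted p between 0.131 and 0.956 over the libraries left out). From 4.5 to 6.0 months psmb8 stood at 2.03 ± 0.96 (edgeR adjusted p = 0.317), with all old fish above all fish of 4.5 months. Set against psmb5 in the same library, psmb8 reached 12.3 CPM for each 100 CPM of psmb5 in 6.0 months replicate 2, 6.46 in 1.5 months replicate 1 and as little as 0.45 in 1.5 months replicate 2; transcript lengths were not used, so these ratios only order the libraries.

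**Figure D2:**
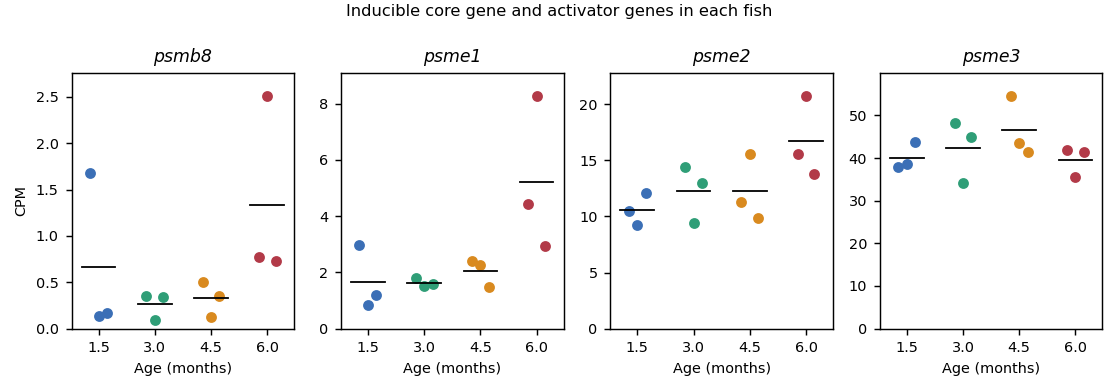
CPM of psmb8, psme1, psme2 and psme3 (y axes, each starting at 0) in each fish by age in months (x axis); points are fish and bars are means of 3. The highest fish for psmb8 (2.51), psme1 (8.26) and psme2 (20.7) is 6.0 months replicate 2, and psme3 has no such point.

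The inducible psmb9a and the other beta genes listed under locus numbers, psmb6 aside, had few counts too. psmb9a, the counterpart of psmb6 in immune proteasomes, held 10, 0 and 0 counts at 1.5 months, 2, 4 and 4 at 3.0 months, 21, 2 and 12 at 4.5 months and 20, 90 and 18 at 6.0 months. All 3 old fish lay above all 3 young ones, and again 6.0 months replicate 2 was highest. Its fitted log2 change was 3.40 ± 1.23 (edgeR adjusted p = 0.151), a value that rests on 2 young libraries at 0. Its slope was 0.81 ± 0.23 per month (edgeR adjusted p = 0.0995), and with DESeq2 the slope passed (adjusted p = 0.0353). psmb12 and psmb13a stood at 2.44 ± 1.21 and 0.85 ± 0.85 (edgeR adjusted p = 0.28 and 0.607), and psmb11a had 0 counts in all 12 libraries. For psmb13a the counts were 34, 6 and 10 at 1.5 months and 22, 72 and 10 at 6.0 months. psma6l, an alpha-type entry found in the same way, stood at 0.59 ± 0.24 (edgeR adjusted p = 0.192).

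Markers of immune cells were highest in the fish that was highest in psmb8, psme1 and psme2, but did not follow these genes in every library. The 10 microglia and macrophage markers summed to 34.8, 36.9 and 36.6 CPM at 1.5 months, 77.2, 46.6 and 60.7 at 3.0 months, 95.04, 64.8 and 49.3 at 4.5 months and 113.5, 199.8 and 95.01 at 6.0 months. Of these 10, 8 rose from 1.5 to 6.0 months (edgeR), where 2.78% of all genes were called. The list was partly drawn from earlier results of these data, so this count is not an independent test. There were 5 tested genes of antigen presentation and interferon response, 1 of them also in the microglia list. They summed to 43.3, 15.4 and 23.3 CPM at 1.5 months, 39.0, 22.9 and 39.9 at 3.0 months, 46.3, 54.1 and 20.3 at 4.5 months and 92.5, 109.6 and 45.8 at 6.0 months. From 1.5 to 6.0 months 1 of the 5, irf8, rose (edgeR). In both lists the highest sum fell in 6.0 months replicate 2. The lowest microglia sum fell in 1.5 months replicate 1, the second highest library for psmb8. In that library the antigen presentation sum was the highest among the fish of 1.5 months. At 3.0 months the microglia sums were above those of 1.5 months. Mean psme1 stood at 1.64 CPM at 3.0 months against 1.66 at 1.5 months, and mean psmb8 at 0.26 against 0.66. Mean psme2 stood at 12.25 against 10.59 CPM. The means at 1.5 months include replicate 1, at 2.95 CPM for psme1 and 1.68 for psmb8. Without that library the log2 change from 1.5 to 3.0 months was 0.68 for psme1 and 0.76 for psmb8 (edgeR), and neither passed. Lymphocyte markers (6 of 8 names tested) summed to between 1.863 and 5.105 CPM. The share of immune cells in the change of psme1, psme2 and psmb8, and that of the surface epithelium RNA in 1.5 months replicate 1, was not tested.

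The activator psme3, which forms a nuclear activator, read 38.0, 38.6 and 43.7 CPM at 1.5 months and 41.9, 35.6 and 41.5 at 6.0 months (log2 change -0.02 ± 0.15, edgeR adjusted p = 0.965). psme4, the large activator linked in mammals to histone degradation, read 148.6, 107.2 and 113.5 CPM at 1.5 months, 122.4, 215.7 and 116.3 at 3.0 months, 101.2, 190.7 and 182.5 at 4.5 months and 98.04, 110.2 and 121.2 at 6.0 months. Its 3 highest values came from 3 of the 4 libraries low in ribosomal protein RNA, and the fourth, 6.0 months replicate 2, was not raised. The difference of psme4 from 4.5 to 6.0 months was -0.53 ± 0.27 (edgeR adjusted p = 0.367), and without the 2 Resub libraries it was 0.12 (edgeR adjusted p = 0.895).

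psmc3ip, no proteasome subunit, read 4.17, 3.06 and 5.48 CPM at 1.5 months, 4.97, 5.43 and 5.95 at 3.0 months, 6.08, 6.01 and 6.53 at 4.5 months and 5.57, 7.52 and 7.19 at 6.0 months. The old fish lay above the young ones without overlap, though by little (5.57 against 5.48 at the edge). The log2 change was 0.67 ± 0.21 (edgeR adjusted p = 0.107; DESeq2 adjusted p = 0.0433).

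Core levels also differed between fish of the same age, and the core genes did so together. Core genes other than psmb8 had a median log2 level, centred on each gene's mean over the 12 libraries, of -0.34 in 3.0 months replicate 2, -0.07 and -0.25 in 4.5 months replicates 2 and 3 and -0.33 in 6.0 months replicate 2. These are the 4 libraries low in ribosomal protein RNA, while the other 8 stood between -0.02 and 0.31. The mean over the 4 libraries was below that over the other 8 for 13 of 13 core genes, with a median difference of -0.43, and for 18 of 19 cap genes, with a median of -0.13. Over all 43 members the count was 38 (49.3% of all genes), and the median over all genes was 0.01.

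All 4 of these libraries lay below all other 8 for 7 of 43 members (4.62% of all genes), and each of the 7 was a core gene: psma3, psma6, psma8, psmb2, psmb3, psmb4 and psmb7. The level differences were -0.49 for psmb2 and psmb3 and -0.36 for psma6. Among cap genes the order was looser, from 0.12 for psmd2 to -0.62 for the chaperone psmd9, and psme4 went the other way at 0.56. Without library scaling factors the core stood at -0.34 (13 of 13 below 0), whereas the cap stood at -0.04 (14 of 19 below 0) with all genes at 0.09. The 4 libraries also had lower summed RPE markers, at 3516, 5542, 5640 and 4475 CPM against 6729 to 11700 in the other 8. These sums rest mostly on rpe65 and rlbp1. Of the RPE markers, rpe65 and stra6 were lower in all 4 than in the other 8, while rlbp1, rgra and best1 overlapped. For example, rgra read 568.1 CPM in 6.0 months replicate 2 against 403.3 in 1.5 months replicate 1. These 4 are samples picked out by their ribosomal protein RNA, not a group of the study, and the part of RPE content in the core levels was not tested.

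**Figure D3:**
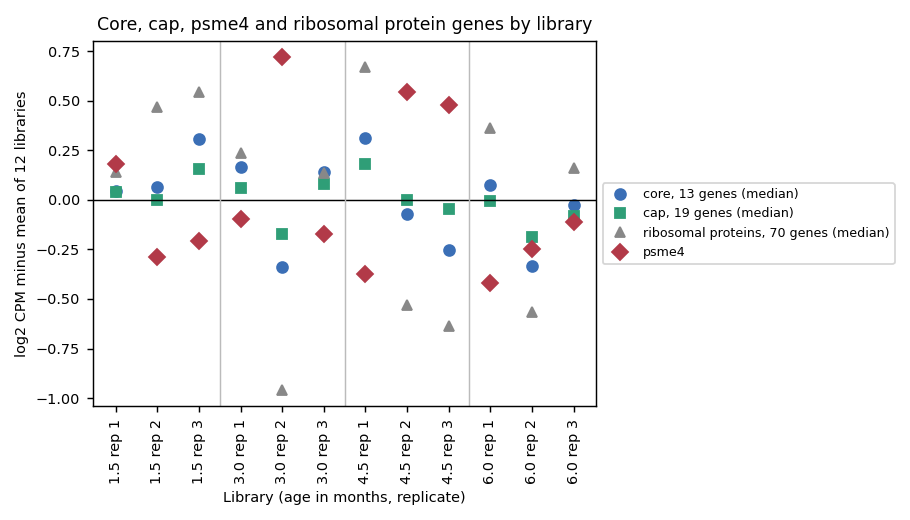
Log2 CPM minus the mean of the 12 libraries (y axis) for each library by age in months and replicate (x axis): medians of 13 core, 19 cap and 70 ribosomal protein genes, and psme4. The core median drops to -0.34, -0.07, -0.25 and -0.33 in the 4 libraries low in ribosomal protein RNA, and psme4 is high in 3 of them (0.72, 0.54 and 0.48).

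**Figure D4:**
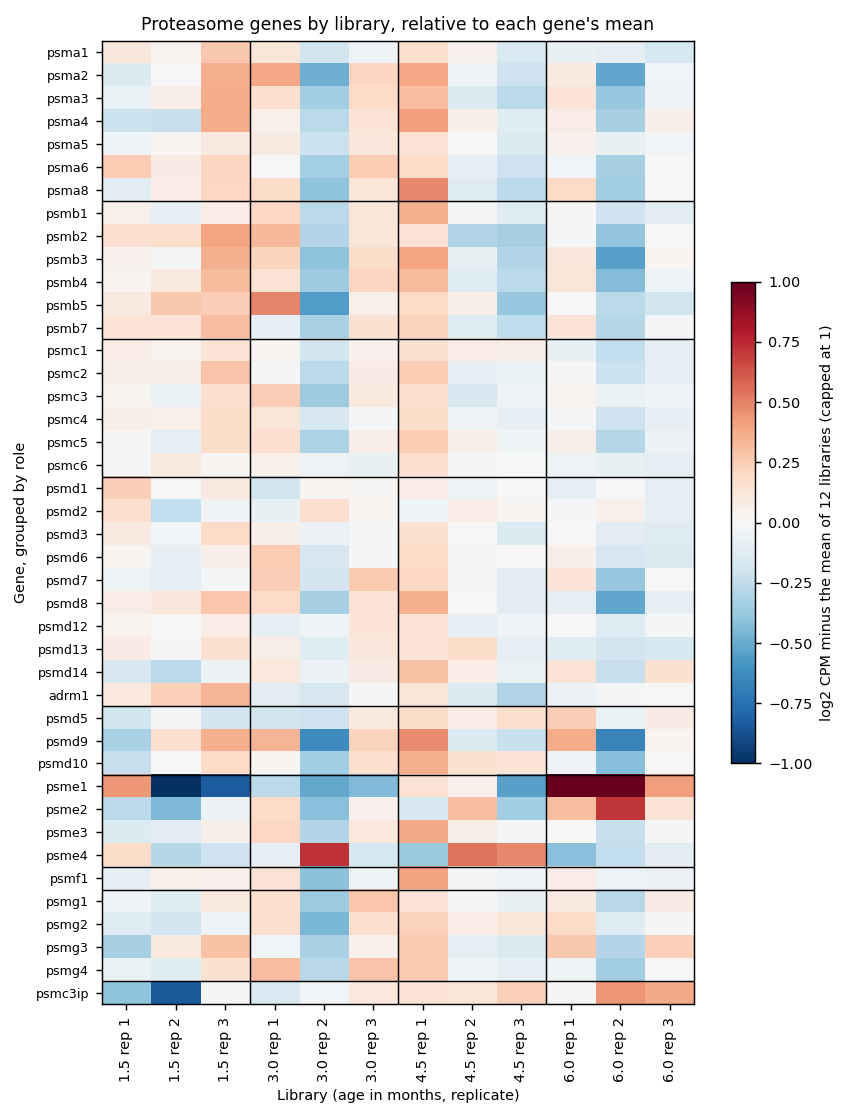
Log2 CPM of 42 members (rows, ordered by role; psmb8 is left out for its low counts) in the 12 libraries (columns), minus each gene's mean and with the colour scale ending at 1 either side of 0. All 13 core rows are below their mean in replicate 2 at 3.0 months, replicate 3 at 4.5 months and replicate 2 at 6.0 months, and psme1 is highest in 6.0 months replicate 2.

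The libraries at the extremes were few. Of 43 members, 17 had their lowest level in 3.0 months replicate 2 and 15 in 6.0 months replicate 2 (39.5% and 34.9%, against 14.5% and 12.3% of all genes). The highest level fell in 4.5 months replicate 1 for 17 members (39.5% against 12.1% of all genes). It fell in 1.5 months replicate 3 for 9 (20.9% against 6.66%). Both of these libraries were high in ribosomal protein RNA, at 53133 and 48759 CPM.

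Ordered by the mean of each age, 30 of 43 members were lowest at 6.0 months (23.9% of all genes) and 19 were highest at 1.5 months (29.3%). This order depended on single libraries: 16 of 43 members were lowest at 6.0 months without replicate 2 of that age (24.6% of all genes), 20 without 3.0 months replicate 3 (21.5%) or 4.5 months replicate 1 (21.1%), and 21 without 3.0 months replicate 1 (22.5%). Without the 4 libraries low in ribosomal protein RNA, 24 of 43 were lowest at 6.0 months (24.3% of all genes). Of the 13 core genes 11 were lowest at 6.0 months and 10 highest at 1.5 months, and of the 19 cap genes 15 were lowest at 6.0 months. None of these orders was tested, and no difference of a member between neighbouring ages passed.

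The remaining pairs of ages share fish with the comparisons above, and their medians depended on single libraries. The direction turned with a library left out, except from 4.5 to 6.0 months, where the median stayed below 0 and its size changed. From 1.5 to 3.0 months 30 of 43 estimates lay below 0 (51.6% of all genes; median -0.05), the largest on either side being psmb8 at -1.33 ± 0.98 and psmc3ip at 0.36 (edgeR adjusted p = 0.598 and 0.507). That direction turned with 1 library: without 3.0 months replicate 2, 16 lay below 0 (median 0.05), and without 1.5 months replicate 3, 19 did (median 0.01). From 3.0 to 4.5 months 12 lay below 0 (47% of all genes; median 0.05), with psmb2 at -0.22 and psme1 at 0.33 at the ends (edgeR adjusted p = 0.639 and 0.807). This too turned, to 29 below 0 (median -0.03) without 3.0 months replicate 2 and 28 (median -0.05) without 4.5 months replicate 1, while over the other libraries left out the count went as low as 5 and the median as high as 0.13.

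From 4.5 to 6.0 months 36 estimates lay below 0 (49.4% of all genes; median -0.10). The count was 23 without 4.5 months replicate 1 (median -0.01) and also 23 without 6.0 months replicate 2 (median -0.03), whereas the median was -0.27 without the 2 Resub libraries and -0.19 and -0.17 without 6.0 months replicate 1 and 4.5 months replicate 3. The levels at 4.5 and 6.0 months did not overlap for psme1 and psmb8, which were higher at 6.0 months (9.97% of all genes), or for psmc1, psmc6, psmd10 and psmd13, which were lower (11.1%).

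From 1.5 to 4.5 months 21 of 43 estimates lay below 0 (46.7% of all genes; median 0.00), psmb8 (-1.01) and psmc3ip (0.55) being at the ends (edgeR adjusted p = 0.568 and 0.158); the count was 33 without 4.5 months replicate 1 (median -0.09) and 14 without 1.5 months replicate 3 (median 0.04). From 3.0 to 6.0 months 33 lay below 0 (49.7% of all genes; median -0.08), with psme4 at -0.46 and psmb8 at 2.36 ± 0.99 (edgeR adjusted p = 0.716 and 0.551). Without 6.0 months replicate 2, 21 lay below 0 and the median was 0.00; the counts were 23 and 22 without 3.0 months replicates 1 and 3 (medians -0.01 and 0.00). The slope per month was below 0 for 32 members (49% of all genes), with a median of -0.02 per month, and for 26 (median -0.01) without 6.0 months replicate 2.

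Genes that work with the proteasome gave no passing difference either. Of 41 names of ubiquitin-activating, ubiquitin-handling and proteasome-regulating genes, 28 entries were tested. In all 8 tests edgeR called 0 of 28, against shares of all genes from 0% to 3.03%. At an unadjusted p under 0.05 (edgeR) there were 3 for 6.0 against 1.5 months (20.4% of all genes). There were 6 for 4.5 against 1.5 months (22.2%) and 5 for 3.0 against 1.5 months (12.6%). Each of the other pairs gave 1 (8.35% to 16.6%), any difference 4 (22.9%) and the slope 2 (17.2%). nfe2l1, the transcription factor that drives proteasome genes in mammals, read 140, 110 and 122 CPM at 1.5 months, 124, 124 and 122 at 3.0 months, 165, 166 and 179 at 4.5 months and 120, 152 and 130 at 6.0 months. All 3 fish of 4.5 months lay above every other fish, with a log2 difference from 1.5 months of 0.45 ± 0.12 (edgeR adjusted p = 0.0695).

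At 4.5 months 15 of 43 members had their highest mean (34.9%), near the share of all genes (29.3%). Among them were 3 of the 13 core and 8 of the 19 cap genes. By library, 17 members were highest in 4.5 months replicate 1, 1 in replicate 2 and 0 in replicate 3. Any link of nfe2l1 to these levels was not tested. pomp, the chaperone that matures the core, read 63.7, 77.4 and 97.0 CPM at 1.5 months and 84.4, 52.7 and 74.6 at 6.0 months (log2 change -0.17 ± 0.25, edgeR adjusted p = 0.744). usp14, a deubiquitinase on the cap, read 20.9, 25.0 and 25.8 CPM at 1.5 months and 26.2, 30.0 and 26.2 at 6.0 months. All old fish lay above the young ones for usp14, by 0.20 ± 0.11 on the log2 scale (edgeR adjusted p = 0.327).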

How the data were processed

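RNA from 12 killifish retinas with RPE was counted per gene. Per the labels' protocols the libraries were Nextera XT, read from both ends; the aligner, counting program, annotation and genome build are not given in the sources used here. The deposited counts are whole numbers with no normalization, and small counts (1 to 20) were even in 73.16% of cases, which leaves fewer independent reads than counts if each mate was counted. A second deposited count table was identical and not used. The authors' normalized signal values equalled the count plus 1 over a size factor per library for 100% of shared genes (within 0.001) and were used only for this check. No 2 libraries agreed within sampling noise (lowest chi-square per gene 14.48).

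Counts were fitted in R 4.3.3 with edgeR 4.0.16 (filterByExpr with minimum count 10 and minimum total 15; TMM; glmQLFit with robust settings and glmQLFTest; all 12 libraries fitted together by age, and once more for the slope; Benjamini-Hochberg over 20717 genes). The fit had 8 residual degrees of freedom and a common BCV (the relative spread between fish) of 0.3063. A gene passed at an adjusted p under 0.05. DESeq2 1.42.0, RLE factors, no filter, only the ages compared, a replicate block and left-out libraries were alternatives. The script was tested on simulated data. 5257 locus numbers took a symbol from the RefSeq table of NfurGRZ-RIMD1. Levels are CPM and are not compared between genes, since no lengths were used; reads shared by paralogs or overlapping genes could be split in a way not given.

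Members, lists and tests were chosen with earlier results of these data known. Named genes were those with the largest rise and fall in each comparison, the catalytic and inducible core genes, psma3, the ATPases, psmd1, psmd2, adrm1, psmd14 and the psme, psmf and psmg genes; others were named after their values were seen. No entry for psma7, psmd4 or psmb10 was found among the deposited names or the looked-up symbols, so these genes were not analysed. The labels give separate fish, so the spread is between fish.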

Additional observations from a re-analysis of the deposited data

How the results depend on the processing

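With 3 fish an age the median SE of the members was 0.16 (log2, 6.0 against 1.5 months), which limits how small a change can pass, and psmb8 and psmb9a have few counts. The edgeR counts of 0 members called held with RLE factors, without the filter, with only the compared ages, and without the Resub, lens or low ribosomal protein libraries. DESeq2 called 2 for 6.0 against 1.5 months, 1 for 6.0 against 3.0 months, 1 for any difference and 2 for the slope; the cause was not tested. With each library left out in turn the count ranged from 0 to 1 for the slope (psme1) and from 0 to 1 for 4.5 against 1.5 months (adrm1), and was 0 elsewhere. The median change from 4.5 to 6.0 months was -0.2712 without the 2 Resub libraries, a setting that leaves 1 fish at 4.5 months, assumed to vary like the others. The median change from 1.5 to 6.0 months ranged from -0.1608 (without 1.5 months replicate 2) to -0.0484 (without 6.0 months replicate 2). With a replicate block 0 members were called in all 8 tests, and the median from 1.5 to 6.0 months was -0.123; psmd11b no longer passed from 1.5 to 4.5 months (edgeR adjusted p = 0.0654). Correlations of same-numbered libraries ran from -0.32 to 0.30 with 8 of 18 over 0.1, so the numbers were not taken to pair the fish. The counts of members lowest at 6.0 months without given libraries were added after seeing the data.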
